A study of Homo sapiens with 9 samples.

Results

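Carbonic anhydrases and their partner bicarbonate transporters were followed at the level of RNA in a cell line from a human clear cell renal carcinoma. The group comprised 9 genes: the carbonic anhydrases CA2, CA5B, CA8, CA9, CA11, CA12 and CA13, and the transporters SLC4A2 and SLC4A7. They were taken by symbol from a table of 58735 gene identifiers. RNAseq had been carried out on 9 libraries in 3 groups of 3. One group was the untreated parental line (WT), another was WT cells exposed to PT2385 (10 μM, over 48 h), and the last was labelled as a HIF2α knockout (KO). PT2385 is an antagonist that keeps HIF2α from pairing with HIF1β. All groups derive from this line, which has defective VHL and an inactivating mutation of HIF1α, so that HIF2α is the HIFα subunit that is constitutively present, and all were grown at 21% oxygen. The labels do not say whether the KO libraries come from a single line. How the knockout was made is not given in the sources used here. The paper describes silencing of HIF2α with siRNA and no knockout line. Effects of the loss of HIF2α and of the history of the KO cells thus cannot be told apart. The labels number the replicates but do not say that they were separate cultures, so p-values measure the spread between these libraries, which may be technical.

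Carbonic anhydrases are zinc enzymes that interconvert carbon dioxide and water with bicarbonate and a proton. CA2 and CA13 are cytosolic and CA5B is mitochondrial. CA9 and CA12 are anchored in the plasma membrane with the active site outside the cell, where they help tumour cells to export acid, and CA9 is widely used as a marker of clear cell renal carcinoma. CA8 and CA11 are related proteins that have lost the enzyme activity. SLC4A2 (AE2) exchanges chloride for bicarbonate and SLC4A7 (NBCn1) carries sodium with bicarbonate into the cell. HIF complexes bind DNA at a short core, ACGTG or GCGTG, within hypoxia response elements.

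Promoter sequence was at hand in RefSeq's table for 5 of the 9 genes (CA5B, CA9, CA12, SLC4A2 and SLC4A7), and CA2, CA8, CA11 and CA13 were not in it. The 2 membrane enzymes with an outward active site are shown because one was silent and the other changed most in the counts. Each line gives the 250 bases before the RefSeq transcription start (GRCh38.p14), 5′ to 3′ on the strand of the gene, and capitals mark ACGTG or GCGTG read on either strand (CACGT and CACGC when on the opposite strand).
CA9, chr9:35673678-35673927, plus strand: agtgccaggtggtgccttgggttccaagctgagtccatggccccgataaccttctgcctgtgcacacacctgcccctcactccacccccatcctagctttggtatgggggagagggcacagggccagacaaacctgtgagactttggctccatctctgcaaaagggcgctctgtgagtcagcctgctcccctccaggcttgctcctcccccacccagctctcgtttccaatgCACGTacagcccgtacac
CA12, chr15:63381847-63382096, minus strand: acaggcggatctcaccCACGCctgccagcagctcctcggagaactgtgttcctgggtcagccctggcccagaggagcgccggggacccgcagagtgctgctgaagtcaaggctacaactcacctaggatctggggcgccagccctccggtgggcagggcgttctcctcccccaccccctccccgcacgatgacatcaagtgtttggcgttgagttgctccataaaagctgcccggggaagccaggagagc
The CA9 stretch holds ACGTG on the opposite strand, from -18 to -14 relative to the start. The CA12 stretch holds GCGTG on the opposite strand, from -234 to -230, and no ACGTG. Among 35116 promoter stretches of the same length, 18.5% held ACGTG and 32.2% held GCGTG on either strand, and 43.2% held at least one of the pair. Stretches that are not shown held cores too, with 6 GCGTG for CA5B and, over both strands, up to 6 ACGTG in a stretch of SLC4A2. The ACGTG matches in that stretch came in opposite-strand pairs on CACGTG, which reads the same on both strands. Each such site was thus counted on both strands. For SLC4A7 stretch 1 held 2 GCGTG and stretch 2 held 0 of either core. A match to these letters is a description and not a binding site.

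The libraries held between 11881000 and 14730081 counted reads, and TMM factors stayed between 0.9882 and 1.016. EPAS1, the gene that encodes HIF2α, had 3226, 3210 and 2788 reads in WT, 3075, 3317 and 3132 with PT2385, and 262, 360 and 307 in KO. EPAS1 RNA was thus low but not absent in KO, with 8.63% ± 0.983 of the mean WT level left (SD, n = 3). A fall in RNA alone does not show that the gene was knocked out. With PT2385 EPAS1 stood at 93.1% ± 6.58 and was not differentially expressed (edgeR, adjusted p = 0.459). All 10 markers of renal epithelium and renal carcinoma lay above 3 reads in every library, but single markers moved in both directions. With PT2385 4 of 10 were called (3 higher and 1 lower), beside 7.70% of all tested genes. In KO 6 of 10 were called (3 higher and 3 lower), beside 30.1% of all tested genes. CDH6 was 2.61-fold higher with PT2385, and in KO it was 2.05-fold higher, KRT18 1.81-fold higher and PAX2 2.47-fold lower. The summed level of the 10 markers, most of it VIM (4746 in WT), was 7500 to 8060 normalised CPM in WT, 7360 to 8000 with PT2385 and 7310 to 7760 in KO. The summed fibroblast markers gave 8.79 to 10.1 in WT, 10.5 to 13.3 with PT2385 and 5.23 to 7.01 in KO, with 4 of 7 markers at 0 in each group. PDGFRB, a fibroblast and pericyte marker, had 27, 31 and 28 reads in WT and 23, 37 and 31 with PT2385. In KO it had 2, 2 and 0. All 3 tested fibroblast markers were called in KO (1 higher and 2 lower), beside 30.1% of all tested genes. Besides PDGFRB, COL1A1 was 2.15-fold lower, while LUM was 2.23-fold higher. With PT2385 0 of the 3 were called, beside 7.70% of all tested genes. The part of these shifts in the results below was not tested. Endothelial and leukocyte markers reached at most 0.619 and 1.38 normalised CPM.

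Of the 9 genes, 6 passed the filter on low counts in each comparison (CA2, CA5B, CA12, CA13, SLC4A2 and SLC4A7), and CA8, CA9 and CA11 did not. Upon PT2385 treatment CA12 fell and CA2 rose, so that 2 of the 6 were differentially expressed, where the share over all tested genes was 7.70% (3.08% higher and 4.62% lower). With the replicate number as a block the same 2 were called, while the count over all genes went from 1162 to 2305. In KO, CA12 fell and SLC4A2 rose, again 2 of 6, where the share over all genes was 30.1% (14.7% higher and 15.4% lower). Between KO and PT2385-treated cells 1 of the 6, CA12, differed, against 18.8% of all genes (8.47% higher and 10.3% lower). Both comparisons with WT use the same 3 WT libraries and are therefore not independent. Groups did not overlap for 3 of the 6 genes with PT2385 (26.0% of all tested genes), 2 of 6 in KO (44.1%, with 22.1% higher and 22.0% lower), and 3 of 6 between KO and PT2385 (35.4%). The median log2 fold change of the 6 genes was 0.0236 with PT2385 and 0.0873 in KO, beside 0.000993 and 0.00378 over all tested genes. Values below are normalised CPM, the reads scaled to library size with edgeR's TMM factors over the 9 libraries, and differential expression means an adjusted p under 0.05 in edgeR's quasi-likelihood test.

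CA12 (ENSG00000074410, chromosome 15, 63321378 to 63381846 of GRCh38) was the most responsive of these genes. It had 325.7, 315.8 and 308.1 normalised CPM in the WT libraries, 114.8, 109.9 and 122.2 with PT2385, and 31.5, 24.9 and 34.5 in KO. The 3 groups lay apart, with every PT2385-treated library below every WT library and every KO library below both. With PT2385 36.5% ± 1.97 of the mean WT level was left, and in KO 9.58% ± 1.55 (SD, n = 3). The log2 fold change was -1.46 with PT2385 (standard error 0.0624, adjusted p = 1.75e-08, edgeR) and -3.37 in KO (standard error 0.102, adjusted p = 2.82e-09). The antagonist and the knockout differed from each other, by -1.93 on the log2 scale for KO against PT2385 (95% confidence interval -2.18 to -1.69, adjusted p = 1.70e-06). Ranked by p among all tested genes, CA12 was number 21 with PT2385 and number 10 in KO. In bulk RNA, fewer cells that express a gene and less RNA per cell cannot be told apart.

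**Figure D1:**
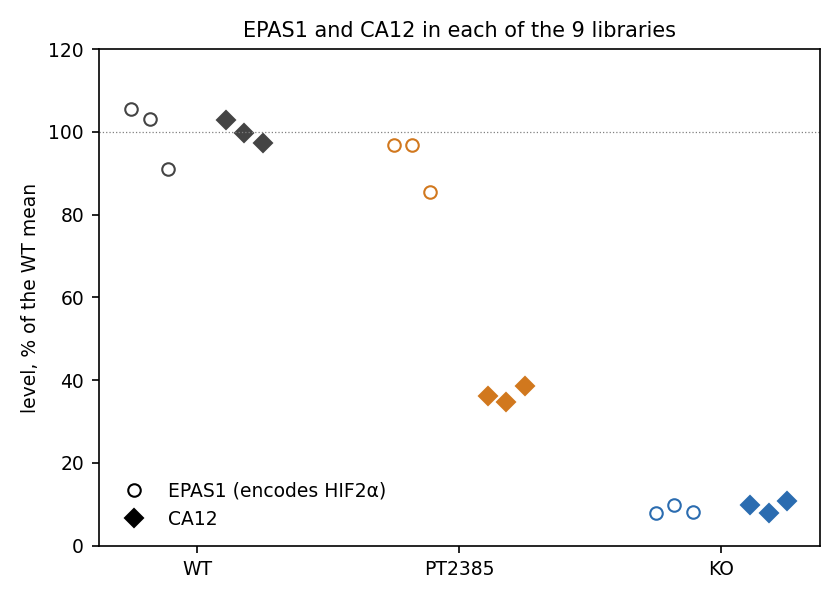
EPAS1 (open circles) and CA12 (filled diamonds) in each library as a percentage of the WT mean, by group, 3 libraries each. With PT2385 EPAS1 stayed near the WT level (93.1%) while CA12 lay at 36.5%, and in KO they lay at 8.63% and 9.58%.

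With PT2385 the EPAS1 libraries overlapped those of WT, and the CA12 libraries did not. In KO every library lay below every WT and PT2385-treated library for either gene. HIF2α protein was not measured in these files.

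CA9 (ENSG00000107159, chromosome 9, 35673928 to 35681159) had 0 reads in each of the 9 libraries. Its promoter stretch printed above holds the ACGTG core, as do 18.5% of all such stretches. Counting error alone leaves room for up to 3 reads per library, or 0.206 to 0.251 normalised CPM. CA9 shares 571 exon bases of its 1598 with ARHGEF39 on the opposite strand, a gene with 950 reads over the 9 libraries. The count of 0 also covers the exon bases of CA9 outside this overlap. How reads on the shared bases were assigned is not given in the sources used here, and its part in the count was not tested. CA8 (ENSG00000178538, chromosome 8, 60185412 to 60281400) also had 0 reads throughout. CA11 (ENSG00000063180, chromosome 19, 48637946 to 48646187) had 1 read in WT replicate 2, 1 in KO replicate 2 and 0 in the 7 others. No change in these 3 genes was detectable at this depth, and no fold change is given for them. Of 8 further carbonic anhydrases (CA1, CA3, CA4, CA5A, CA6, CA7, CA10 and CA14), 0 passed the filter; CA3 had 42 reads and CA6 15 reads over the 9 libraries, and the other 6 genes had 0.

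CA2 (ENSG00000104267, chromosome 8, 85463968 to 85481493), a cytosolic enzyme, was up-regulated upon PT2385 treatment. It had 24.1, 19.0 and 20.7 normalised CPM in WT and 32.2, 31.7 and 32.7 with PT2385, with every treated library above every WT library. The log2 fold change was 0.59 (95% confidence interval 0.38 to 0.81, adjusted p = 0.00253, edgeR), which is 1.51-fold. With all 9 libraries in a single model the change was 0.60 but the adjusted p was 0.0902, the highest of 13 alternatives, whose adjusted p began at 1.62e-06.

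In KO, CA2 was split between libraries, with 21.7 and 20.9 normalised CPM in replicates 1 and 3 and 38.8 in replicate 2. The first pair lay within the WT range and replicate 2 above every PT2385-treated library. CA2 was not differentially expressed in KO (log2 fold change 0.37, 95% confidence interval -0.10 to 0.83, adjusted p = 0.223), and the adjusted p of the alternatives ran from 0.00966 without the filter on low counts to 0.937 without KO replicate 2. Without KO replicate 3 it was 0.0419, and CA2 was then differentially expressed (log2 fold change 0.53). Against PT2385 the difference of KO was -0.25 (adjusted p = 0.449, alternatives from 0.00295 to 0.804). Without KO replicate 2 it was -0.60, with the adjusted p of 0.00295. KO replicate 2 was more than 1.5 times both other KO libraries in 25 of 10140 well-counted genes (0.247%), CA2 included, a count made after CA2 was seen. KO replicate 3 was so in 45 genes (0.444%). CDH6, a kidney cadherin on the renal marker list, showed the same split, with 158.8, 292.5 and 159.7 normalised CPM in the KO libraries. The part of that library in the CA2 values was not tested further.

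CA13 (ENSG00000185015, chromosome 8, 85220587 to 85284073), another cytosolic enzyme, lies in the same gene cluster as CA2. The cluster holds CA13, CA1, CA3 and CA2 in this order over 261 kb, and 180 kb separate CA13 from CA2. CA13 had 16.1, 16.7 and 19.8 normalised CPM in WT, 20.1, 15.6 and 16.4 with PT2385, and 15.3, 18.0 and 18.2 in KO, so that all groups overlapped. Its log2 fold change was -0.017 with PT2385 (95% confidence interval -0.29 to 0.25) and -0.012 in KO (-0.27 to 0.25), with adjusted p of 0.960 and 0.955 (edgeR). The sign of these values changed with the scaling or with the library left out. Between the 2 cytosolic enzymes CA1 had 0 reads and CA3 had 2 to 7 reads per library.

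**Figure D2:**
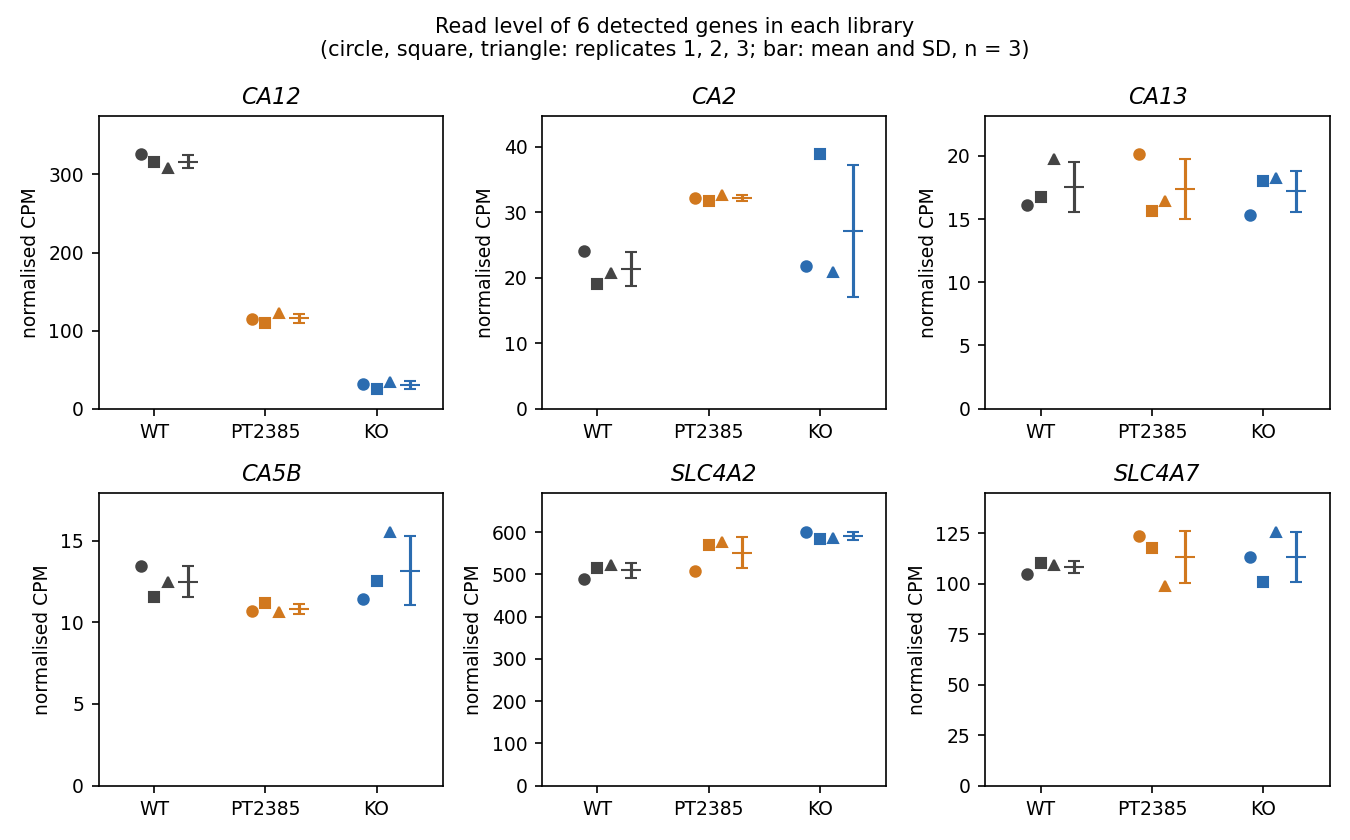
Normalised CPM of the 6 detected genes in each library (circle, square and triangle for replicates 1, 2 and 3) with the mean and SD of 3 replicates beside them; every axis starts at 0. CA12 steps down from WT to PT2385 to KO, CA2 is higher with PT2385 and split in KO, and CA13 overlaps in all groups.

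CA5B (ENSG00000169239, chromosome X, 15688830 to 15788411) encodes a mitochondrial enzyme. It had 13.4, 11.5 and 12.5 normalised CPM in WT, 10.7, 11.2 and 10.6 with PT2385, and 11.4, 12.5 and 15.6 in KO. The treated libraries lay just below those of WT, as did 12.9% of all tested genes, and the KO libraries overlapped WT. No comparison was past the threshold: the log2 fold change was -0.21 with PT2385 (95% confidence interval -0.46 to 0.04) and 0.09 in KO (-0.21 to 0.40), and KO lay 0.28 above PT2385 (-0.02 to 0.59, adjusted p = 0.199, edgeR). CA5B shares 29 exon bases on the same strand with the pseudogene CA5BP1, which had 2504 reads against 1436 for CA5B. The sequences of these genes were not compared, and reads could be split between them in counting. With the reads of both summed, an alternative added after the data were seen, the 3 values were -0.13, 0.13 and 0.24, with adjusted p of 0.469, 0.274 and 0.114.

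The transporter SLC4A2 (ENSG00000164889, chromosome 7, 151057210 to 151076526) rose slightly in KO. Its levels were 489.9, 516.1 and 521.9 normalised CPM in WT and 601.3, 583.9 and 586.8 in KO, with every KO library above every WT library. The log2 fold change was 0.23 (95% confidence interval 0.11 to 0.35, adjusted p = 0.00788, edgeR), a rise of 1.17-fold. It kept an adjusted p of at most 0.0439 under each of the 13 alternatives. With PT2385 the libraries had 508.3, 570.0 and 575.4 and overlapped WT. The change of 0.11 was not past the threshold (-0.02 to 0.24, adjusted p = 0.337), and KO did not differ from PT2385 beyond the error (0.10, -0.05 to 0.24, adjusted p = 0.355). Every KO library lay above every PT2385-treated library, as in 16.6% of all tested genes. So SLC4A2 was called in KO and not with PT2385, but a difference between the 2 arms was not shown by the test.

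SLC4A7 (ENSG00000033867, chromosome 3, 27372721 to 27484420) had 104.8, 110.3 and 109.3 normalised CPM in WT, 123.6, 117.7 and 98.9 with PT2385, and 113.3, 100.8 and 125.9 in KO. Its groups overlapped in every comparison. The intervals of the log2 fold change were -0.11 to 0.24 with PT2385 and -0.09 to 0.26 in KO. In the direct comparison of KO with PT2385 the interval was -0.23 to 0.23. In contrast to CA12, changes of 2-fold in this transporter lie outside all 3 intervals.

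**Figure D3:**
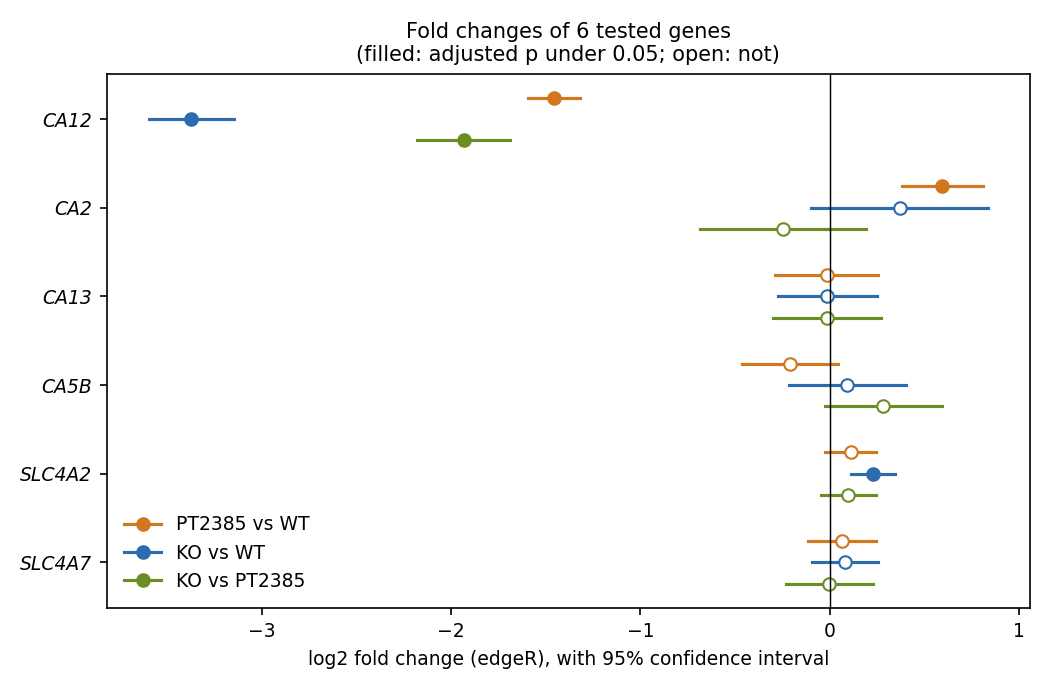
Log2 fold changes of the 6 tested genes with 95% confidence intervals from edgeR for PT2385 vs WT, KO vs WT and KO vs PT2385; filled points have an adjusted p under 0.05. The CA12 intervals lie far to the left of 0 in all 3 comparisons, and only CA2 with PT2385 and SLC4A2 in KO are filled among the other 5 genes.

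Levels were compared between genes per kilobase of exon sequence. In WT, SLC4A2 stood highest with 67.3 ± 2.25 normalised CPM per kb (SD, n = 3), followed by CA12 with 45.2 ± 1.26. SLC4A7 (11.2 ± 0.306) and CA2 (10.6 ± 1.28) overlapped, and CA13 (3.13 ± 0.348) and CA5B (1.46 ± 0.111) came last, each apart from its neighbours. CA12 was thus 4.02 times as high as the third gene and the leading carbonic anhydrase of the untreated cells. With PT2385 it came down to 16.5 ± 0.890 per kb and overlapped CA2 at 16.0 ± 0.235. In KO it was 4.33 ± 0.702 per kb, below SLC4A7 (11.8 ± 1.31) and each of the CA2 libraries, whose mean was 13.5 ± 5.03. SLC4A2 kept the first place in all 3 groups. When the longest transcript was used as the length, CA2 moved ahead of SLC4A7 in WT and of CA12 with PT2385, and CA12 overlapped CA13 in KO.

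**Figure D4:**
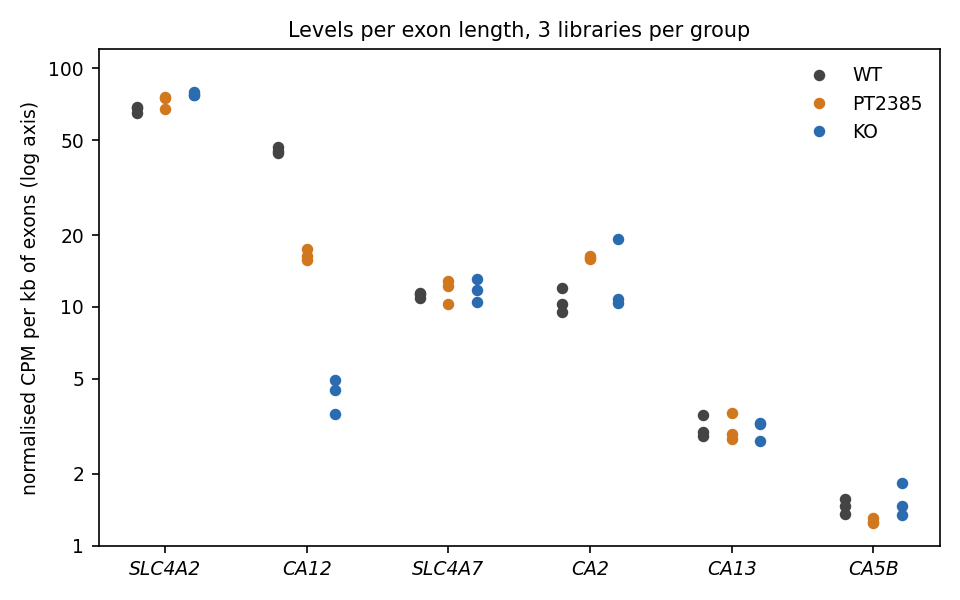
Normalised CPM per kb of exons for the 6 detected genes on a log axis, with 3 libraries per group as points (WT grey, PT2385 orange, KO blue). CA12 ranks second in WT at 45.2, lies level with CA2 with PT2385 at 16.5, and lies below CA2 and SLC4A7 in KO at 4.33.

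The wider acid-base machinery was described with 9 lists of 86 genes in all. Upon PT2385 treatment 3 of the 42 genes that passed the filter were differentially expressed (7.14%, beside 7.70% of all tested genes), and all 3 rose. ATP6V0A1, a membrane subunit of the proton-pumping V-ATPase, went from 21.3, 20.1 and 19.4 to 26.3, 26.6 and 27.0 normalised CPM (log2 fold change 0.39, adjusted p = 0.0172, edgeR). SLC26A2, a sulphate and anion exchanger, rose by 0.28 on the log2 scale (adjusted p = 0.0206). NHERF1, a scaffold that binds sodium-proton exchangers, rose by 0.27 (adjusted p = 0.0384). All 3 changes were under 1.5-fold, and across the alternatives their adjusted p reached 0.0846, 0.101 and 0.195. The count was 0 without WT replicate 3 or without PT2385 replicate 2, 1 without WT replicate 1 or 2, and 5 with the replicate number as a block, where ATP6V1D was lower (-0.33, named after its values were seen). The 4 tested monocarboxylate transporter genes, SLC16A1, SLC16A3, SLC16A7 and BSG, were not past the threshold with PT2385.

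In KO the same 42 genes held 17 that were differentially expressed, 15 higher and 2 lower (40.5%, beside 30.1% of all genes), with a median log2 fold change of 0.129 beside 0.00378 over all tested genes. The 2 that fell, named here after their values were seen, were the anion exchanger SLC26A1 (-0.47) and the sodium-proton exchanger SLC9A8 (-0.26). Among the V-ATPase subunits 9 of 19 were called higher and 0 lower, beside 14.7% and 15.4% of all tested genes. They were ATP6V0A1 and TCIRG1 of the membrane sector and ATP6V1A, ATP6V1B2, ATP6V1C1, ATP6V1E1, ATP6V1F, ATP6V1G1 and ATP6V1H of the cytosolic sector that splits ATP, and apart from ATP6V0A1 they are named here after their values were seen. Their log2 fold changes ran from 0.25 for ATP6V1E1 to 0.61 for ATP6V0A1. Between KO and PT2385, 6 of the 19 subunits were called higher and 1 lower, beside 8.47% and 10.3% of all tested genes. BSG, the chaperone of monocarboxylate transporters (0.42), and SLC16A7 (0.57) rose, again named after their values were seen, and the lactate exporter SLC16A3 did not differ beyond the error (0.02, 95% confidence interval -0.11 to 0.16).

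Of the 5 sodium-proton exchangers tested in all 3 comparisons, 1 rose in KO (SLC9A7) and 1 fell (SLC9A8), with a median log2 fold change of 0.0268. SLC9A7, an exchanger of the Golgi apparatus, had 176, 216 and 226 reads in WT, 222, 238 and 272 with PT2385, and 577, 719 and 802 in KO. Its log2 fold change was 1.55 in KO (standard error 0.112, adjusted p = 1.94e-06, edgeR) and 0.09 with PT2385, and KO and PT2385 differed by 1.45 (adjusted p = 5.36e-06). NHERF2, a scaffold protein like NHERF1, had 7, 13 and 13 reads in WT, 17, 17 and 18 with PT2385 and 102, 95 and 89 in KO (log2 fold change in KO 2.90, adjusted p = 7.66e-06). SLC26A7, an anion exchanger, had 39, 34 and 40 reads in WT and 83, 61 and 119 in KO (1.01, adjusted p = 0.00927, edgeR). It shares 116 exon bases on the same strand with LRRC69, which had 862 reads over the 9 libraries against 489 for SLC26A7. The part of shared reads in this change was not tested. SLC9A2 and SLC9A9 passed the filter only where KO was compared, and so had to be higher there. SLC9A2, an exchanger of the plasma membrane, had 2 to 7 reads in WT and 35 to 58 in KO, and SLC9A9, an endosomal exchanger, 4 to 7 and 29 to 51. SLC4A4, the main renal sodium bicarbonate cotransporter, was lower in KO than with PT2385 (log2 fold change -0.45, adjusted p = 0.0122, named after its values were seen), and against WT its change in KO was -0.27 (adjusted p = 0.0686).

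**Figure D5:**
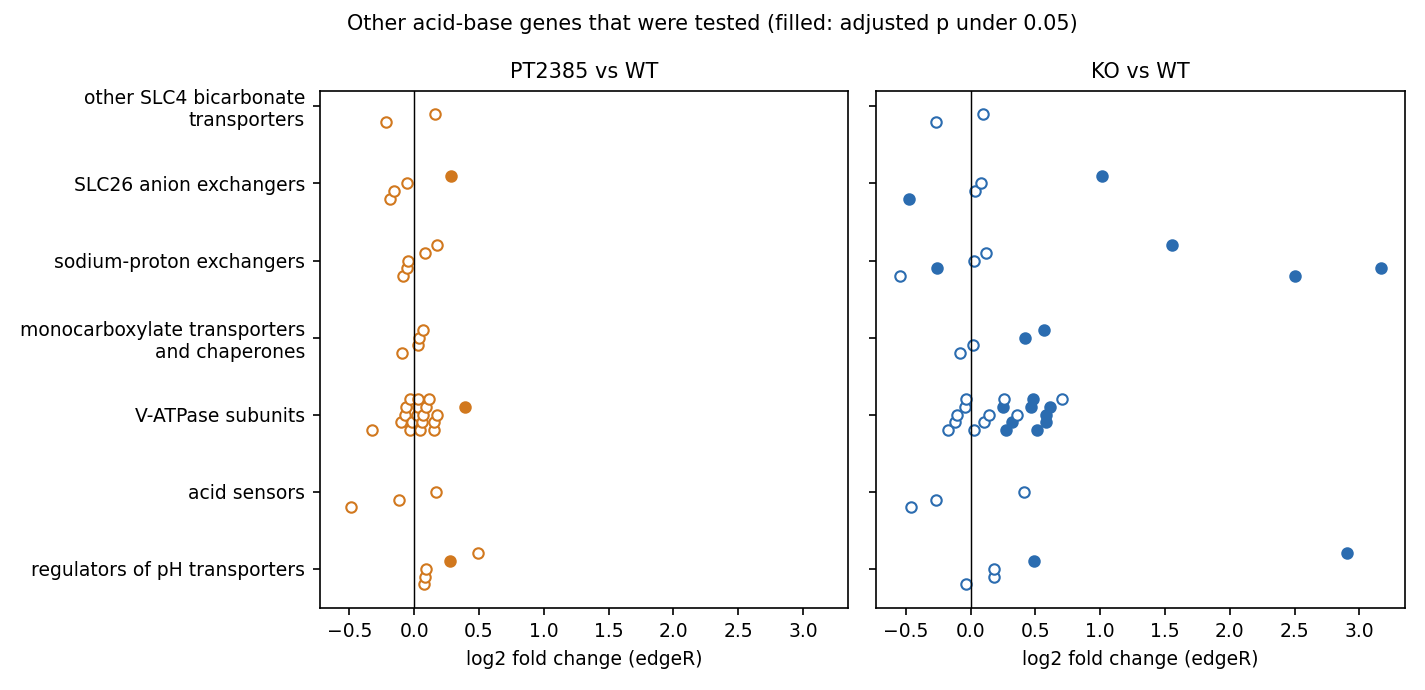
Log2 fold changes of the tested genes of 7 acid-base lists with PT2385 (left) and in KO (right), 1 point per gene, filled where the adjusted p was under 0.05; the 2 other lists had no tested gene. With PT2385 3 points are filled, and in KO the filled point farthest to the right among genes tested in all 3 comparisons is NHERF2 at 2.90; SLC9A2 (3.16) and SLC9A9 (2.50) passed the filter only through their KO libraries.

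Genes with a pattern like that of a member were sought by the Pearson correlation of log2 CPM over the 9 libraries among 10140 genes with a mean of at least 100 reads. The 9 libraries fall into 3 groups, so genes that step with the groups correlate with each other, and the values are given as a description. For CA12 the nearest were CENPA, NEDD4 and JPT2, each with r = 0.996. This correlation takes no account of size: in KO the log2 fold change was -0.37 for CENPA, the centromeric histone, -1.87 for NEDD4, a ubiquitin ligase, and -0.75 for JPT2, beside -3.37 for CA12. For CA2 they were KDM6B (0.967), a histone demethylase, ATP5MC2 (0.960) and PLXDC2 (0.958). SCRIB (0.979) came nearest to SLC4A2 and THUMPD2 (0.974) to CA5B. SLC4A7 and CA13, whose groups overlapped, reached 0.919 with HSP90AA1 and 0.888 with MT-ND2.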

How the data were processed

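The authors checked reads with FastQC, trimmed them with cutadapt, aligned them to GRCh38 with STAR and counted them per gene with featureCounts. They deposited these raw counts for 9 libraries, without normalization. Tool versions, the annotation release and strandedness are not given in the sources used here, so genes that overlap another may hold some of its reads. Of 58735 identifiers, 58207 were matched to GENCODE release 44, and 0 columns were left without a sample.

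The members and lists were chosen with earlier results of these data known. Each pair of groups was fitted on the whole table with edgeR 4.0.16 in R 4.3.3 (TMM, filterByExpr with a minimum of 10 counts, quasi-likelihood F test, Benjamini-Hochberg adjustment over all tested genes). Standard errors are the log2 fold change divided by the root of F. The steps were tested on simulated data. CPM over the 9 libraries used TMM factors from all 9, and up to 3 counts were taken as the floor. Intervals and floors of single counts cover counting error only.

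Deviations of same-numbered WT and PT2385 libraries from their group means correlated over 10140 genes (0.453, 0.137 and 0.431), so the numbers were taken to pair those libraries. For WT and KO the values were 0.319, 0.056 and 0.481, and for PT2385 and KO 0.348, 0.0915 and 0.415. Only replicate 2 lay below the minimum of 0.1 used here. The main fits held no replicate block, so their p-values do not use the pairing of WT with PT2385. The block, run as an alternative, called 2305 genes for that comparison against 1162 in the main fit. Outside the members, genes were named if called in both comparisons with WT or among the 5 largest called changes of a comparison, and for likeness the 3 nearest genes per member. Alternatives were DESeq2 1.42.0, scaling by RLE, by the upper quartile or by library size alone, a replicate block, a single model of all 9 libraries, dropping the filter, and leaving out each library. The values of 1 gene of the acid-base lists are not reported here.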

Additional observations from a re-analysis of the deposited data

How the results depend on the processing

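CA12 kept its direction and call in all 39 alternative fits, 13 per comparison. With PT2385 against WT, 1162 genes were called, 2305 with the replicate block and 564 to 1454 with a library left out, and for KO against PT2385 2897 genes, 1827 to 3163 with a library left out. All 9 libraries in a single model left 1 of these 9 genes called with PT2385, and leaving out a library left 1 to 2 for KO against PT2385. Among the other acid-base genes 5 were called with PT2385 under the block and 0 to 4 with a library left out. The block changed no call of these 9 genes. For KO the numbers were not taken to pair the libraries (0.056 and 0.0915 for replicate 2, and not every KO library correlated best with its own number), and the block gave 5501 genes against 4566 for KO with WT and 3783 against 2897 for KO with PT2385. With the longest transcript as length, 4 of 6 genes kept their rank in WT and 4 of 6 with PT2385. Values near 0 changed sign. CA13 with PT2385 was 0.0042 with library-size scaling and -0.125 to 0.0746 with a library left out; it was -0.0655 to 0.074 in KO and -0.0862 to 0.108 for KO against PT2385. SLC4A7 for KO against PT2385 was 0.00676 with DESeq2, 0.00687 with RLE, 0.00763 with upper-quartile scaling, 0.000197 with all 9 libraries and -0.0842 to 0.0765 with a library left out, and in KO -0.000787 to 0.161. CA5B in KO was -0.0442 to 0.185 and SLC9A7 with PT2385 -0.00918 to 0.159 with a library left out. The causes were not tested. CA8, CA9 and CA11 had too few reads to be compared; for CA9 the part of reads shared with ARHGEF39 was not tested.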
